A study of Homo sapiens with 9 samples.

Results

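The 44 genes described here encode ribosome biogenesis factors, the proteins that make, modify and fold ribosomal RNA and assemble it with ribosomal proteins. They were chosen by gene symbol from knowledge of their roles, and each symbol matched 1 of the 36225 genes of the deposited table. They were measured by sequencing of poly(A) RNA in RBE, a human cell line established from a bile duct cancer (intrahepatic cholangiocarcinoma). Every group received a lentivirus: the control group one with a scramble sequence, and the others one with a short hairpin directed at IDH1 (shIDH1) or at JOSD2 (shJOSD2). Each group has 3 libraries, 9 in all. The labels give no time after infection, name 1 cell line and 1 hairpin label per target, and leave unsaid if libraries of a group are separate infections. The p-values therefore reflect the spread of these libraries alone, and that spread may be technical. IDH1 encodes an enzyme that converts isocitrate in the cytosol, and JOSD2 an enzyme that removes ubiquitin from proteins. The title of the series speaks of mutant IDH1, JOSD2 and the coactivators YAP and TAZ.

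Ribosomes are made in the nucleolus. RNA polymerase I transcribes the ribosomal RNA precursor, small nucleolar ribonucleoproteins (snoRNPs) modify it, the small-subunit processome folds and cuts it, and further factors carry the precursors of both subunits to the cytoplasm. Growing cells spend much of their energy on this pathway, and many of its genes are known targets of the transcription factor MYC, which binds the E-box letters CACGTG.

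Library totals lay between 66036276 and 71612713 deposited counts, and every member had at least 397 counts in every library. IDH1 stood at 44.0 ± 4.44 FPKM in control and 12.6 ± 0.446 in shIDH1 libraries (SD, n = 3 each), so the target was lower, and at 34.5 ± 1.56 in shJOSD2 libraries. JOSD2 fell from 6.37 ± 0.260 FPKM to 0.795 ± 0.101 with its own hairpin and to 1.68 ± 0.174 with the IDH1 hairpin (SD, n = 3 each). Of 6 biliary and epithelial markers (KRT7, KRT19, KRT8, KRT18, SOX9 and EPCAM) the summed level was 1460 to 1838 FPKM. Summed fibroblast markers (6 genes) were at most 2.93 FPKM in control, 7.41 to 8.31 in shIDH1 and 4.66 to 4.95 in shJOSD2 libraries, with 3 of 4 tested markers higher in shIDH1 cells; their part in the results was not tested. Summed levels of 5 leukocyte and 4 endothelial markers stayed at or under 8.52 FPKM. Those of 3 hemoglobin genes varied within groups, from 0.988 to 25.1 FPKM in control, 1.67 to 2.43 in shIDH1 and 1.13 to 22.3 in shJOSD2 libraries. Control replicate 1 stands apart from the other control libraries: 6 hepatocyte markers summed to 8.94 FPKM there and to up to 55.6 FPKM in the other controls, against 7.93 to 12.7 FPKM over the knockdown libraries. Further, 34 of the 44 members had their lowest control value in it. The share of all tested genes that did so was not counted, so this is not shown to be particular to the members. Counts with and without these libraries are therefore given below. In bulk RNA, fewer cells that express a gene and less RNA per cell cannot be told apart.

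In control cells the members were well expressed, with a median of 21.1 FPKM against 1.53 FPKM over the 21492 genes tested. FPKM is scaled to gene length and library size, so levels of different genes can be set side by side. NPM1 and NCL, which encode the abundant nucleolar proteins nucleophosmin and nucleolin, led at 245 ± 10.3 and 135 ± 10.6 FPKM (SD, n = 3). DDX10, an RNA helicase gene, was lowest at 2.13 ± 0.223 FPKM (SD, n = 3). In all, 33 members lay at 10 FPKM or above.

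IDH1 knockdown went with a broad fall of the factors. The members' share of all counts was 0.576, 0.633 and 0.649% in the control libraries and 0.362, 0.381 and 0.373% in the shIDH1 libraries, with no overlap. It was 0.550, 0.563 and 0.574% in the shJOSD2 libraries, all under control replicate 1, the lowest control. Each gene was then tested with edgeR's quasi-likelihood test on the counts, adjusted by Benjamini-Hochberg across the 21492 tested genes, and is called where the adjusted p is under 0.05. In shIDH1 cells 38 of 44 members were called lower and 0 higher (86.4% of members called), where 25.6% of all tested genes were lower and 24.5% higher. Of the members, 14 fell at least 2-fold, against 9.40% of all tested genes. DESeq2 likewise called 38 lower and 0 higher. The FPKM ranges of the same 38 members lay below control without overlap, a state shared by 28.3% of all tested genes. The median log2 change of the 44 members was -0.73, and that of all tested genes 0.01.

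The 6 members without a call in shIDH1 cells were GAR1, WDR43, BYSL, PNO1, NIP7 and GNL2, with log2 changes between -0.24 and 0.03. Against control replicate 1 alone, 32 members were called lower and 0 higher, with a median of -0.55, where 18% of all genes tested in that fit were lower. With 1 control library the spread comes from the shIDH1 and shJOSD2 libraries, the lone control is assumed to vary like them, and a call can be lost through the smaller number alone. WDR75, LTV1, NOB1, RRP12, PPAN and GNL3 lost their call there, and without control replicate 1 the members called lower numbered 37. PPAN, a large-subunit factor with the largest adjusted p among the 38, stood at 14.0, 15.0 and 13.3 FPKM in the control libraries, 9.62, 12.1 and 12.7 in the shIDH1 libraries and 16.1, 17.1 and 19.6 in the shJOSD2 libraries. It had a log2 change of -0.30 ± 0.11 (edgeR adjusted p = 0.0473, Benjamini-Hochberg) and lost its call under 14 of 21 alternative settings. PPAN also lies in a read-through locus with P2RY11 on the same strand, so its counts are uncertain. NOP2, LTV1 and RRS1 are likewise overlapped by an annotated coding gene on the same strand, and the effect on their counts was not tested.

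**Figure D1:**
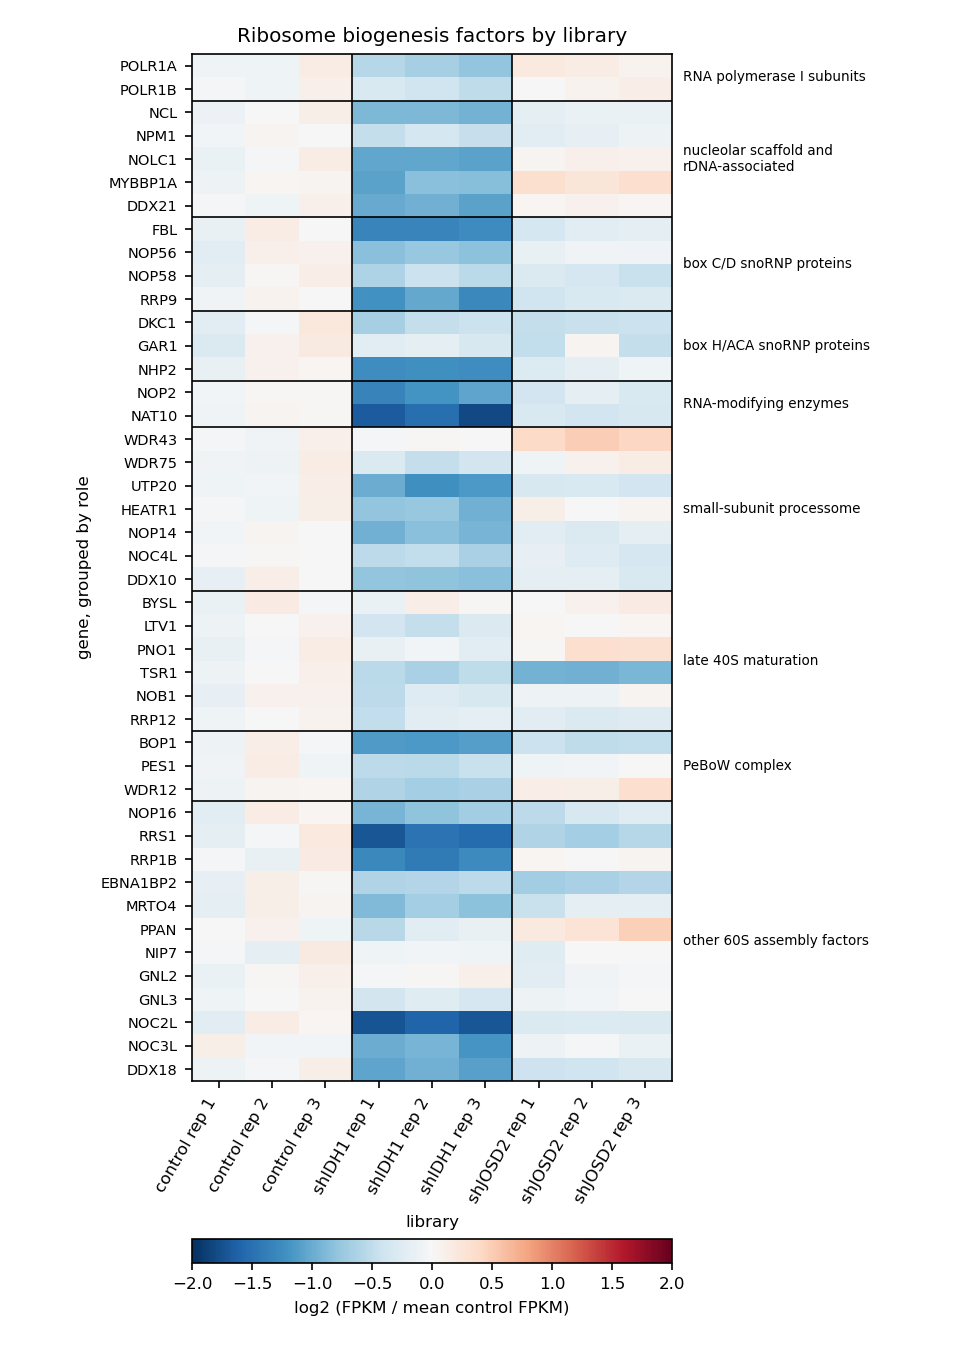
Level of each of the 44 members (rows, grouped by role) in each of the 9 libraries (columns), as log2 of FPKM over the gene's mean control FPKM, with blue for lower and red for higher. The shIDH1 columns are blue for most rows, with medians over the members of -0.72, -0.69 and -0.74, and the shJOSD2 columns are paler, with medians of -0.21, -0.12 and -0.11.

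JOSD2 knockdown went with fewer calls among the members, and their number moved with the controls and the scaling. In shJOSD2 cells 26 of 44 members were called lower and 1 higher, where 20.1% of all tested genes were lower and 18.2% higher. The median log2 change was -0.31 for the members and 0.03 for all tested genes, and TSR1 alone among the members fell at least 2-fold, against 4.25% of all tested genes. Only 20 members had FPKM ranges below control without overlap, a state of 17.4% of all tested genes. Ranges above control without overlap were found for 4 members (9.09%), against 34.2% of all tested genes. Against control replicate 1 alone, 10 members were called lower (DKC1, NOP2, NAT10, UTP20, NOP14, TSR1, BOP1, RRS1, EBNA1BP2 and DDX18) and 1 higher, where 12.5% of all genes tested in that fit were lower. The median there was -0.17 for the members and 0.07 for all genes. Most members that lost their call also had a smaller log2 change there. NOP56 stood at 0.00 there and -0.24 against all 3 controls, NOC2L at -0.18 and -0.44, and NHP2 at -0.16 and -0.33. NOC3L alone among them kept its fold, with a log2 change of -0.32 there and -0.24 against all 3 controls.

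The scaling of the libraries also moved this comparison. TMM factors rescale library sizes by the genes left after the most extreme ones are set aside. Without them, the median of all genes in shJOSD2 cells moved from 0.03 to 0.18. The calls over all genes moved from 3907 higher and 4330 lower to 5638 higher and 2934 lower. Upper-quartile factors gave 4827 higher and 3491 lower. Without TMM factors 17 members were called lower and 3 higher. The difference between the members' median and that of all genes, -0.34, is fixed by construction under a change of scaling and says nothing of its effect.

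**Figure D2:**
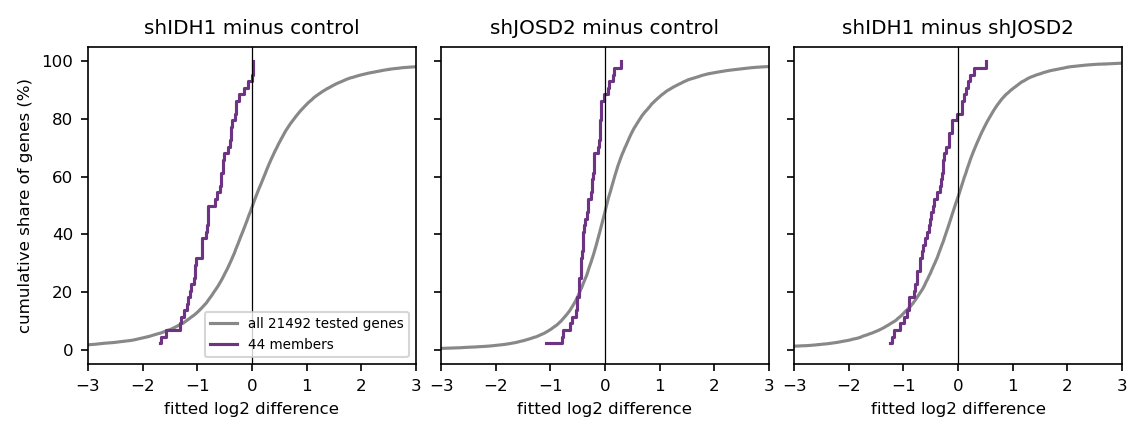
Cumulative share of genes (vertical axis, percent) by fitted log2 difference (horizontal axis) for the 44 members and for all 21492 tested genes, in 3 comparisons. The members' curve lies left of the curve of all genes over most of its length, and their medians are -0.73, -0.31 and -0.45.

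The hairpins were then set against each other, in the same fit of 9 libraries, whose filter, scaling and spread also use the controls. There 29 of 44 members were lower in shIDH1 than in shJOSD2 cells and 3 higher, where 24.0% of all tested genes were lower and 20.8% higher. The median difference was -0.45 for the members and -0.06 for all tested genes. NOC2L, RRP1B, NAT10 and MYBBP1A were at least 2-fold lower (4 of 44, 9.09%, against 8.00% of all tested genes, a share near the background), with log2 differences of -1.25, -1.20, -1.17 and -1.06. The 3 that stood higher in shIDH1 cells were TSR1, EBNA1BP2 and GNL2. Without TMM factors the members lower in shIDH1 numbered 35 and TSR1 alone stayed higher, while calls over all genes moved from 4479 higher and 5156 lower to 3316 higher and 6653 lower.

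**Figure D3:**
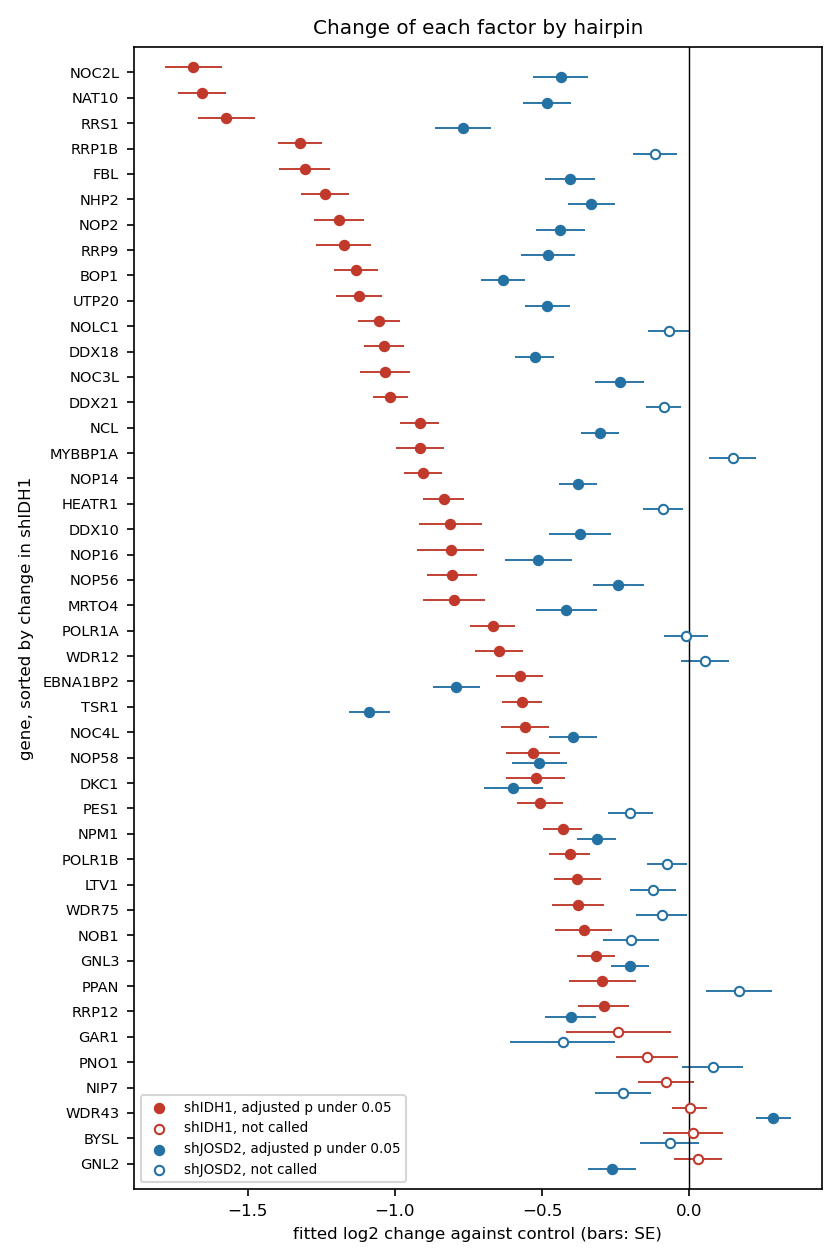
Fitted log2 change against control (horizontal axis, bars are SE) of each member (vertical axis, sorted by the change in shIDH1 cells), in red for shIDH1 and blue for shJOSD2; filled points were called by edgeR. Both comparisons use the same 3 control libraries, and the red points reach from -1.68 (NOC2L) to 0.03 (GNL2).

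The results are given next by role, starting with transcription of the ribosomal RNA precursor. POLR1A encodes the largest subunit of RNA polymerase I and stood at 7.13, 7.18 and 8.46 FPKM in the control libraries, 5.14, 4.80 and 4.41 in the shIDH1 libraries and 8.65, 8.41 and 7.97 in the shJOSD2 libraries. The shIDH1 libraries lay below all others, and POLR1A fell by 0.67 ± 0.08 on the log2 scale there (SE; edgeR adjusted p = 1.18e-05, Benjamini-Hochberg). In shJOSD2 cells its log2 change was -0.01 ± 0.08 (edgeR adjusted p = 0.931), and the difference of shIDH1 from shJOSD2 was -0.66 ± 0.08 (edgeR adjusted p = 1.74e-05). POLR1B, which encodes another subunit of the catalytic core, stood at 5.94, 5.69 and 6.46 FPKM in the control libraries, 4.88, 4.57 and 4.22 in the shIDH1 libraries and 6.03, 6.35 and 6.63 in the shJOSD2 libraries. It fell by 0.41 ± 0.07 in shIDH1 cells (edgeR adjusted p = 0.000304), and its shJOSD2 values overlapped control.

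Among the 5 nucleolar scaffold and rDNA-associated genes, 5 fell in shIDH1 and 2 in shJOSD2 cells. NPM1 stood at 235, 255 and 245 FPKM in the control libraries, 176, 192 and 178 in the shIDH1 libraries and 208, 219 and 228 in the shJOSD2 libraries. All shIDH1 and shJOSD2 libraries lay below all controls; NPM1 fell by 0.43 ± 0.07 in shIDH1 (edgeR adjusted p = 0.000147) and fell by 0.31 ± 0.07 in shJOSD2 cells (edgeR adjusted p = 0.00245), and the hairpins were not called apart (-0.12 ± 0.07, edgeR adjusted p = 0.185). NOLC1, whose product Nopp140 chaperones snoRNPs, stood at 61.5, 65.5 and 75.0 FPKM in the control libraries, 32.7, 32.8 and 32.0 in the shIDH1 libraries and 69.8, 72.0 and 71.6 in the shJOSD2 libraries. It was 2.08-fold lower in shIDH1 cells (edgeR adjusted p = 1.09e-07), while its shJOSD2 values lay within the control range. MYBBP1A, a nucleolar MYB-binding protein gene, stood at 14.9, 16.5 and 16.7 FPKM in the control libraries, 7.66, 8.97 and 8.90 in the shIDH1 libraries and 19.9, 19.0 and 20.1 in the shJOSD2 libraries. It fell by 0.91 ± 0.08 in shIDH1 cells (edgeR adjusted p = 1.22e-06). In shJOSD2 cells its FPKM lay above every control, a state shared by 34.2% of all tested genes. Its log2 change of 0.15 ± 0.08 there was not called with TMM factors (edgeR adjusted p = 0.178). It was called higher without them (0.30, edgeR adjusted p = 0.00611), with upper-quartile factors (0.24, edgeR adjusted p = 0.0356) and in both limma fits. The other 2 genes of this group, NCL and the helicase gene DDX21, had log2 changes of -0.92 ± 0.07 and -1.01 ± 0.06 in shIDH1 and -0.30 ± 0.07 and -0.09 ± 0.06 in shJOSD2 cells, the last of which was not called. The shJOSD2 calls of NCL and NPM1 were lost under 4 and 3 of 21 alternatives. Among these were library sizes without factors, with log2 changes of -0.15 (edgeR adjusted p = 0.0745) and -0.16 (edgeR adjusted p = 0.0546).

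The box C/D snoRNPs guide methylation of ribose in ribosomal RNA, and all 4 of their genes among the members fell with both hairpins. FBL, encoding the methyltransferase fibrillarin, stood at 60.6, 75.1 and 66.8 FPKM in the control libraries, 27.0, 26.9 and 28.2 in the shIDH1 libraries and 53.0, 57.8 and 59.0 in the shJOSD2 libraries. Each control value was more than 2 times the highest shIDH1 value: FBL fell by 1.31 ± 0.09 in shIDH1 (edgeR adjusted p = 1.03e-07) and fell by 0.41 ± 0.09 in shJOSD2 cells (edgeR adjusted p = 0.0024). NOP58, a scaffold protein gene, stood at 20.2, 23.4 and 25.2 FPKM in the control libraries, 15.0, 17.0 and 15.8 in the shIDH1 libraries and 18.7, 18.1 and 16.8 in the shJOSD2 libraries. Its log2 changes in shIDH1 and shJOSD2 cells were -0.53 ± 0.09 (edgeR adjusted p = 0.00038) and -0.51 ± 0.09 (edgeR adjusted p = 0.000832). NOP56, the other scaffold gene, changed by -0.81 ± 0.09 in shIDH1 and -0.24 ± 0.09 in shJOSD2 cells, and RRP9, whose product is specific to the U3 snoRNP, by -1.17 ± 0.09 and -0.48 ± 0.09. Against control replicate 1 alone, none of the 4 was called in shJOSD2 cells, with log2 changes of -0.22 (FBL), 0.00 (NOP56), -0.29 (NOP58) and -0.37 (RRP9), and NOP56 lost its call under 15 of 21 alternatives in all.

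The box H/ACA snoRNPs guide pseudouridylation, and their 3 genes among the members differed from each other. NHP2, a core protein gene, stood at 46.0, 54.0 and 52.4 FPKM in the control libraries, 21.5, 21.8 and 21.4 in the shIDH1 libraries and 41.8, 44.8 and 47.7 in the shJOSD2 libraries. It fell by 1.24 ± 0.08 in shIDH1 (edgeR adjusted p = 8.71e-08) and fell by 0.33 ± 0.08 in shJOSD2 cells (edgeR adjusted p = 0.00536). The shJOSD2 range of NHP2 overlapped control, and that call was lost under 4 of 21 alternatives. DKC1, which encodes the pseudouridine synthase dyskerin, stood at 40.9, 46.6 and 54.8 FPKM in the control libraries, 30.0, 34.2 and 35.1 in the shIDH1 libraries and 34.1, 35.0 and 35.2 in the shJOSD2 libraries. It fell by 0.52 ± 0.10 in shIDH1 (edgeR adjusted p = 0.000807) and fell by 0.60 ± 0.10 in shJOSD2 cells (edgeR adjusted p = 0.00048), with no call between the hairpins (0.08 ± 0.10, edgeR adjusted p = 0.586). GAR1 stood between 2.89 and 4.58 FPKM over all libraries and was called in no comparison.

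The 2 genes of RNA-modifying enzymes fell with both hairpins, and only NOC2L among the members had a larger log2 change than NAT10 in shIDH1 cells. NAT10, an acetyltransferase that makes acetylcytidine in ribosomal RNA, stood at 17.7, 19.6 and 19.3 FPKM in the control libraries, 5.93, 6.67 and 5.40 in the shIDH1 libraries and 15.3, 14.4 and 15.1 in the shJOSD2 libraries. The 3 groups did not overlap, and NAT10 was 3.15-fold lower than control in shIDH1 (edgeR adjusted p = 1.03e-08) and 1.40-fold lower in shJOSD2 cells (edgeR adjusted p = 0.000439). NOP2, a methyltransferase of the large-subunit RNA, stood at 25.8, 27.3 and 27.2 FPKM in the control libraries, 10.6, 11.7 and 12.9 in the shIDH1 libraries and 20.6, 23.4 and 21.6 in the shJOSD2 libraries. It fell by 1.19 ± 0.08 in shIDH1 (edgeR adjusted p = 1.68e-07) and fell by 0.44 ± 0.08 in shJOSD2 cells (edgeR adjusted p = 0.00116). Both lay lower in shIDH1 than in shJOSD2 cells, with log2 differences of -1.17 ± 0.08 (edgeR adjusted p = 2.39e-07) and -0.75 ± 0.08 (edgeR adjusted p = 1.2e-05).

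Of the 7 genes of the small-subunit processome, the large particle that forms on the nascent precursor, 6 fell in shIDH1 cells and 4 fell and 1 rose in shJOSD2 cells. UTP20, encoding a large scaffold protein, stood at 6.80, 6.98 and 7.96 FPKM in the control libraries, 3.64, 3.11 and 3.26 in the shIDH1 libraries and 5.81, 5.86 and 5.57 in the shJOSD2 libraries. It fell by 1.12 ± 0.08 in shIDH1 (edgeR adjusted p = 1.36e-07) and fell by 0.48 ± 0.08 in shJOSD2 cells (edgeR adjusted p = 0.000317). HEATR1, the human UTP10, stood at 14.9, 14.5 and 16.8 FPKM in the control libraries, 8.97, 9.10 and 7.92 in the shIDH1 libraries and 16.7, 15.5 and 16.0 in the shJOSD2 libraries. It was lower in every shIDH1 library (-0.83 ± 0.07, edgeR adjusted p = 6.84e-07), and its shJOSD2 values lay within the control range. NOP14 stood at 26.1, 28.1 and 27.3 FPKM in the control libraries, 14.0, 15.3 and 14.3 in the shIDH1 libraries and 23.2, 22.3 and 24.0 in the shJOSD2 libraries. It fell by 0.90 ± 0.07 in shIDH1 (edgeR adjusted p = 2.08e-07) and fell by 0.38 ± 0.07 in shJOSD2 cells (edgeR adjusted p = 0.000584).

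WDR43, a processome subunit of the group needed for transcription of the precursor, was the member called higher in a comparison with control. It stood at 24.7, 24.2 and 27.3 FPKM in the control libraries, 25.1, 25.7 and 25.5 in the shIDH1 libraries and 33.1, 35.9 and 33.9 in the shJOSD2 libraries. Its shIDH1 values lay inside the control range (0.00 ± 0.06, edgeR adjusted p = 0.994), and it rose by 0.28 ± 0.06 in shJOSD2 cells (edgeR adjusted p = 0.0023). The hairpins differed by -0.28 ± 0.06 (edgeR adjusted p = 0.00178), and the rise was called under every alternative run, with log2 changes of at least 0.26. WDR75, a partner of WDR43 in the same group of subunits, had a log2 change of -0.38 ± 0.09 in shIDH1 and of -0.09 ± 0.09 in shJOSD2 cells, the latter not called. NOC4L and DDX10 changed by -0.56 ± 0.08 and -0.81 ± 0.11 in shIDH1 and by -0.40 ± 0.08 and -0.37 ± 0.11 in shJOSD2 cells, the last call lost under 7 of 21 alternatives.

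Late maturation of the small subunit had the smallest median change of the role groups in shIDH1 cells (-0.33), with 4 of 6 genes lower, and 2 of 6 lower in shJOSD2 cells. TSR1, a GTPase-like factor of late precursors, ran against the more common order of the hairpins. It stood at 20.1, 21.7 and 23.2 FPKM in the control libraries, 14.9, 13.9 and 15.2 in the shIDH1 libraries and 11.3, 11.1 and 11.5 in the shJOSD2 libraries. The groups did not overlap, and the shJOSD2 libraries were lowest: TSR1 fell by 0.57 ± 0.07 in shIDH1 (edgeR adjusted p = 1.77e-05) and fell by 1.09 ± 0.07 in shJOSD2 cells (edgeR adjusted p = 2.53e-07). The difference of 0.52 ± 0.07 between the hairpins was called (edgeR adjusted p = 4.94e-05), also under every alternative. TSR1 overlaps SRR on the opposite strand, and SRR, picked after its values were seen, stood at 3.56, 2.52 and 3.20 FPKM in the control libraries, 3.29, 2.63 and 3.00 in the shIDH1 libraries and 4.05, 5.71 and 5.03 in the shJOSD2 libraries. SRR rose by 0.53 ± 0.15 in shJOSD2 cells (edgeR adjusted p = 0.0148), the reverse of TSR1. The strand setting of the counting is not known from the labels, and reads of the overlap may be shared.

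NOB1, the endonuclease that trims the small-subunit RNA, stood at 32.3, 38.4 and 38.5 FPKM in the control libraries, 25.4, 30.6 and 29.3 in the shIDH1 libraries and 33.8, 34.1 and 37.8 in the shJOSD2 libraries. It fell by 0.36 ± 0.10 in shIDH1 cells (edgeR adjusted p = 0.00765), a call that was lost against control replicate 1 alone, where its log2 change was -0.15. Its partner PNO1 had log2 changes of -0.14 ± 0.10 and 0.08 ± 0.10 and BYSL, encoding bystin, by 0.01 ± 0.10 and -0.07 ± 0.10 in shIDH1 and shJOSD2 cells, and neither was called. LTV1 changed by -0.38 ± 0.08 in shIDH1 cells and RRP12, an export factor, by -0.29 ± 0.09 in shIDH1 and -0.40 ± 0.09 in shJOSD2 cells.

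BOP1, PES1 and WDR12 form the PeBoW complex of large-subunit assembly, and all 3 fell in shIDH1 cells. BOP1 stood at 46.1, 54.2 and 48.7 FPKM in the control libraries, 22.6, 22.4 and 23.2 in the shIDH1 libraries and 36.8, 34.7 and 35.1 in the shJOSD2 libraries. It fell by 1.13 ± 0.07 in shIDH1 (edgeR adjusted p = 9.66e-08) and fell by 0.63 ± 0.07 in shJOSD2 cells (edgeR adjusted p = 3.1e-05), without overlap of the 3 groups. WDR12 stood at 3.93, 4.35 and 4.35 FPKM in the control libraries, 2.76, 2.62 and 2.70 in the shIDH1 libraries and 4.62, 4.56 and 5.34 in the shJOSD2 libraries. It fell by 0.65 ± 0.08 in shIDH1 cells (edgeR adjusted p = 3.04e-05). Its shJOSD2 FPKM lay above control, a state shared by 34.2% of all tested genes. The log2 change of WDR12 there, 0.05 ± 0.08, was not called (edgeR adjusted p = 0.672). PES1 had log2 changes of -0.51 ± 0.08 and -0.20 ± 0.08, the second not called (edgeR adjusted p = 0.0598).

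Among the 12 other large-subunit factors, 10 fell in shIDH1 cells and 9 in shJOSD2 cells, and 0 rose in the main fit. PPAN had shJOSD2 FPKM above every control, a state shared by 34.2% of all tested genes. Its log2 change there, 0.17 ± 0.11, was not called with TMM factors (edgeR adjusted p = 0.278). PPAN was called higher there without them (0.32, edgeR adjusted p = 0.0327) and in both limma fits. NOC2L, the human counterpart of the yeast assembly factor Noc2, stood at 18.5, 24.1 and 22.3 FPKM in the control libraries, 6.53, 7.09 and 6.64 in the shIDH1 libraries and 17.6, 17.9 and 17.7 in the shJOSD2 libraries. It was 3.21-fold lower in shIDH1 cells (edgeR adjusted p = 3.04e-08) and fell by 0.44 ± 0.09 in shJOSD2 cells (edgeR adjusted p = 0.00263), the latter not called against control replicate 1 alone. RRS1, which helps to build the 5S RNA into the large subunit, stood at 65.0, 71.6 and 83.7 FPKM in the control libraries, 22.4, 26.5 and 25.3 in the shIDH1 libraries and 48.2, 46.0 and 49.2 in the shJOSD2 libraries. It fell by 1.57 ± 0.10 in shIDH1 (edgeR adjusted p = 5.7e-08) and fell by 0.77 ± 0.10 in shJOSD2 cells (edgeR adjusted p = 4.75e-05). EBNA1BP2 stood at 41.7, 50.8 and 47.4 FPKM in the control libraries, 30.8, 31.0 and 32.3 in the shIDH1 libraries and 28.7, 29.9 and 31.1 in the shJOSD2 libraries. The ranges of the hairpins overlapped below control: it fell by 0.58 ± 0.08 in shIDH1 (edgeR adjusted p = 6.29e-05) and fell by 0.79 ± 0.08 in shJOSD2 cells (edgeR adjusted p = 1.01e-05), but the difference of 0.22 ± 0.08 between the hairpins (edgeR adjusted p = 0.0452) was lost under 11 of 21 alternatives.

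Of the remaining large-subunit factors, RRP1B had the next largest fall in shIDH1 cells (-1.32 ± 0.08) and a shJOSD2 change of -0.12 ± 0.07 that was not called. The helicase gene DDX18 and NOC3L changed by -1.04 ± 0.07 and -1.03 ± 0.09 in shIDH1 and by -0.53 ± 0.07 and -0.24 ± 0.08 in shJOSD2 cells; the last call was lost under 14 of 21 alternatives. NOP16 and MRTO4 had log2 changes of -0.81 ± 0.11 and -0.80 ± 0.10 in shIDH1 and of -0.51 ± 0.11 and -0.42 ± 0.10 in shJOSD2 cells. The shJOSD2 range of MRTO4 overlapped control, and that call was lost under 4 of 21 alternatives. GNL3, encoding the nucleolar GTPase nucleostemin, changed by -0.32 ± 0.06 and -0.20 ± 0.06, the second lost under 10 of 21 alternatives. Its relative GNL2 had a log2 change of 0.03 ± 0.08 in shIDH1 cells, not called, and of -0.26 ± 0.08 in shJOSD2 cells, a call lost under 9 of 21 alternatives, and NIP7 was called in no comparison.

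Because subunits of 1 complex act together, their ratios were taken within each library, where the scaling cancels. All 9 pairs of members within the box C/D core (FBL, NOP56 and NOP58), the box H/ACA proteins (DKC1, GAR1 and NHP2) and the PeBoW complex were compared. They were chosen by complex after the members' values were seen. SNU13 and NOP10, further snoRNP protein genes, are not members and were not paired. The ranges did not overlap between shIDH1 and control for 8 of 9 pairs and between shJOSD2 and control for 6 of 9. Single genes had separate ranges, in either direction, for 56.9% and 51.7% of all tested genes. Those shares are of single genes, and ratios of other gene pairs were not counted. Within each complex 1 ratio follows from the others, so the 9 pairs are not independent. Each pair with separate ranges had a two-sided exact permutation p = 0.1 (adjusted over the 9 pairs, 0.113 and 0.150 in shIDH1 and shJOSD2). With 3 against 3 libraries no p below 0.1 can arise. The DKC1 to NHP2 ratio was 0.889, 0.864 and 1.05 in control, 1.39, 1.57 and 1.64 in shIDH1 and 0.817, 0.781 and 0.737 in shJOSD2 libraries. It was higher than control in shIDH1 and lower in shJOSD2 libraries. The BOP1 to PES1 ratio was 1.36, 1.37 and 1.44 in control, 0.911, 0.910 and 0.882 in shIDH1 and 1.09, 1.01 and 0.987 in shJOSD2 libraries, below control with both hairpins. The FBL to NOP58 ratio was 3.00, 3.21 and 2.66 in control, 1.80, 1.59 and 1.79 in shIDH1 and 2.83, 3.19 and 3.52 in shJOSD2 libraries; it was below control in shIDH1 libraries and overlapped control in shJOSD2 libraries. No pair could pass 0.05 in this design.

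**Figure D4:**
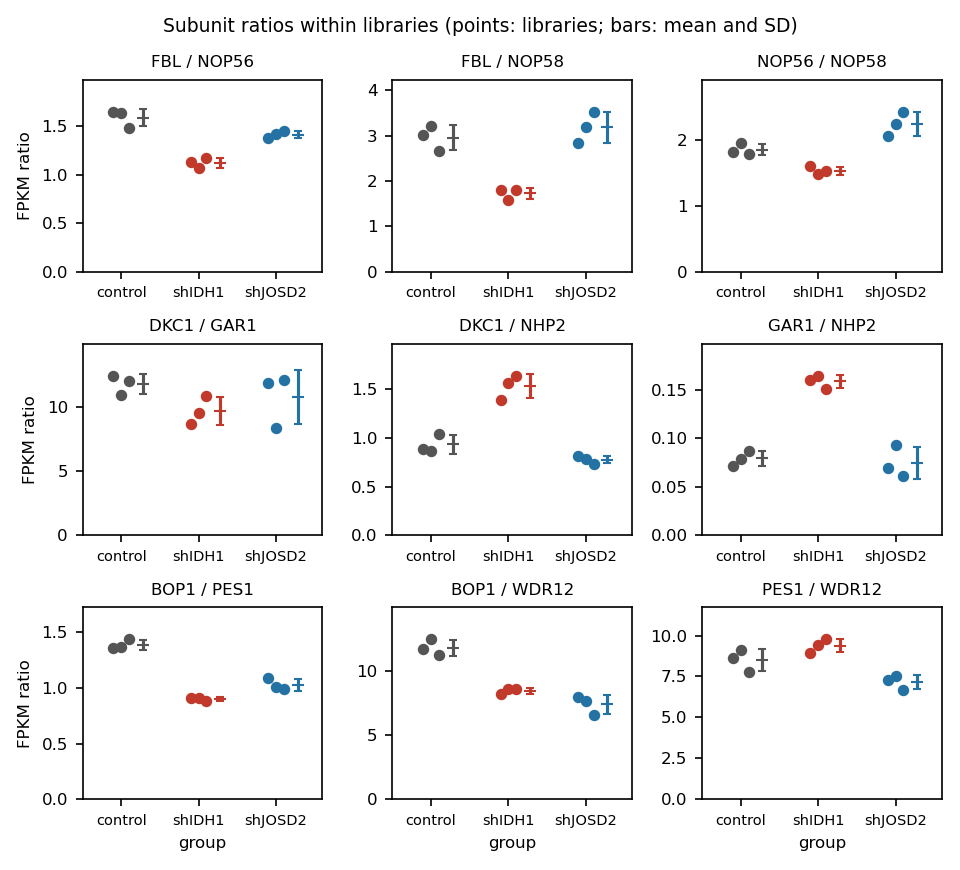
FPKM ratio of each pair of subunits (vertical axes, each starting at 0) in control, shIDH1 and shJOSD2 libraries; points are libraries, and the bars beside them show the mean and SD (n = 3). The PES1 to WDR12 ratio is the pair whose shIDH1 range overlaps control, and the BOP1 to PES1 ratio averages 1.39 ± 0.0426 in control and 0.901 ± 0.0166 in shIDH1 libraries.

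Other genes of ribosome production, from 6 lists with 136 genes that are not members, are given beside them. In shIDH1 cells 94 of the 136 were called lower and 7 higher, with a median of -0.46. In shJOSD2 cells 67 were lower and 11 higher, with a median of -0.22. Of all tested genes, 25.6% were lower and 24.5% higher in shIDH1 cells, and 20.1% lower and 18.2% higher in shJOSD2 cells. Those shares are the background for each list below. Of 14 further genes of RNA polymerase I transcription, 10 fell and 1 rose in shIDH1 and 8 fell in shJOSD2 cells. POLR1G, a polymerase I subunit gene, fell by 2.03 ± 0.14 and fell by 1.23 ± 0.13, respectively, and TCOF1, encoding the nucleolar protein treacle, fell by 1.67 ± 0.07 in shIDH1 cells against a log2 change of 0.00 ± 0.07 in shJOSD2 cells. Of 33 further processome genes 24 fell and 1 rose in shIDH1 cells and 21 fell and 2 rose in shJOSD2 cells. Of 10 further late small-subunit genes 8 fell and 1 rose, and 4 fell and 1 rose, respectively. The gene that rose in both was RIOK3, an atypical kinase, by 1.63 ± 0.08 and 0.56 ± 0.08.

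Of 44 further large-subunit genes 27 fell and 3 rose in shIDH1 cells, and 17 fell and 5 rose in shJOSD2 cells. REXO4, an exonuclease gene, had a log2 change of 0.14 ± 0.07 in shIDH1 cells, not called, and fell by 0.93 ± 0.07 in shJOSD2 cells. Of 12 snoRNP assembly genes 11 fell and 1 rose in shIDH1 cells, and 6 fell and 1 rose in shJOSD2 cells; SHQ1, a chaperone of dyskerin, fell by 1.39 ± 0.11 in shIDH1 cells. Of 23 genes of the RNA exosome and of RNases MRP and P 14 fell and 0 rose in shIDH1 cells, and 11 fell and 2 rose in shJOSD2 cells, with RPP30, a subunit of RNases P and MRP, down by 1.99 in shIDH1 cells. RNA polymerase III, which makes the 5S RNA, had 14 of 19 genes lower and 3 higher in shIDH1 cells and 10 lower and 1 higher in shJOSD2 cells. Of 6 genes of the 5S particle and of nucleolar surveillance, 2 fell and 2 rose in shIDH1 cells, among them CDKN1A, a cell cycle inhibitor and p53 target, which rose by 0.62 ± 0.06. Counts over 6 genes are too few to read as a result about that list.

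MYC, the regulator named above, was higher with both hairpins. It stood at 51.0, 48.2 and 47.4 FPKM in the control libraries, 81.6, 86.6 and 86.9 in the shIDH1 libraries and 80.5, 82.1 and 80.1 in the shJOSD2 libraries. All knockdown libraries lay above all controls, and MYC rose by 0.80 ± 0.06 in shIDH1 (edgeR adjusted p = 1.43e-07) and rose by 0.58 ± 0.06 in shJOSD2 cells (edgeR adjusted p = 6.1e-06). Over the 11 genes of its network, 5 fell and 6 rose in shIDH1 and 2 fell and 4 rose in shJOSD2 cells. Of all tested genes, 25.6% fell and 24.5% rose in shIDH1 cells, and 20.1% fell and 18.2% rose in shJOSD2 cells. Counts over 11 genes are too few to read as a result about the network. MXD3, which encodes a MAX-binding repressor, fell by 1.75 ± 0.19 and fell by 1.58 ± 0.19, respectively. Proliferation markers fell in the same libraries as the members, with 10 of 10 lower in both comparisons and medians of -3.18 in shIDH1 and -1.50 in shJOSD2 cells. AURKB, a mitotic kinase gene, fell by 4.16 ± 0.18 in shIDH1 and fell by 1.47 ± 0.16 in shJOSD2 cells. The part of fewer dividing cells in the members' falls was not tested.

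The promoters of the members were read for short letters because MYC binds CACGTG. RefSeq windows from 250 bases before to 50 after the annotated start (GRCh38.p14) matched 37 of the 44 symbols; NOLC1, NOP58, RRP12, BOP1, RRS1, RRP1B and DDX18 had none. CACGTG, which reads the same on both strands, was in 16 of 37 windows (43.2%), against 9.64% of 13011 windows of tested genes. It began between 20 bases before and 40 after the start in 15 of the 37 windows (40.5%), against 1.98% of the 13011 windows of tested genes; this narrower span was chosen after the positions were seen. Searched on both strands, CCGGAAG was in 11 windows (29.7%, against 16.7% of tested genes), GGGCGG in 28 (75.7%, against 65.1%), the palindromic NRF1 motif in 4 (10.8%, against 2.03%), CCAAT in 12 (32.4%, against 36.0%) and TATAAA in 2 (5.41%, against 6.81%). A match is a description of the letters and not a binding site. The median log2 change in shIDH1 cells was -0.85 for the 16 members with CACGTG and -0.57 for the 21 without it, and -0.32 and -0.24 in shJOSD2 cells. In shIDH1 cells the same split gave -0.81 with and -0.57 without CCAAT, -0.81 and -0.61 for CCGGAAG, and -0.57 and -0.67 for GGGCGG. It gave -0.67 and -0.65 for the palindromic NRF1 motif (4 members with it) and -0.75 and -0.65 for TATAAA (2 members with it). None of these gaps was tested, nor was their cause. The 7 members without a window, among them RRS1 (-1.57), RRP1B (-1.32) and BOP1 (-1.13), are in none of these medians.

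**Figure D5:**
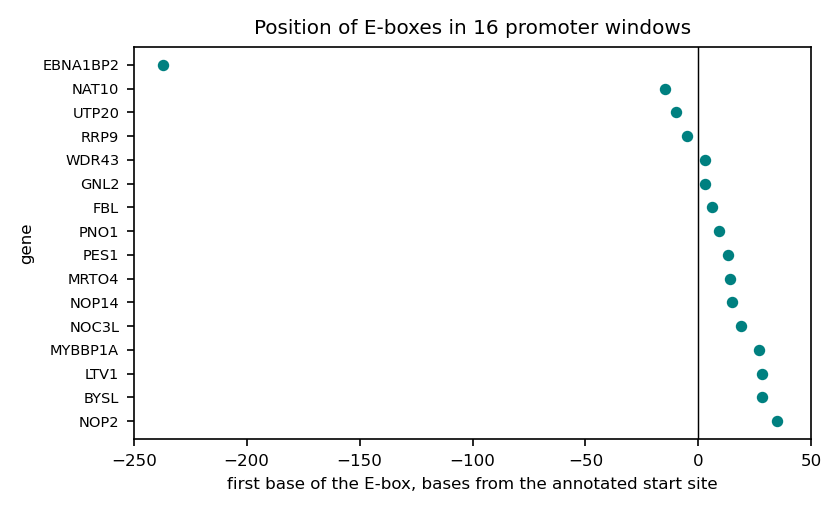
Position of the first base of CACGTG (horizontal axis, bases from the annotated start site) in the 16 promoter windows that hold it (vertical axis, genes). The positions lie close to the start except in EBNA1BP2, where it begins 237 bases before it.

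The RefSeq windows (GRCh38.p14) of 5 members, picked after their values were seen, are shown, each 300 bases, 5′ to 3′ on the strand of the gene, with CACGTG in capitals. NAT10, NOP2 and FBL hold it and fell with both hairpins, WDR43 holds it and rose in shJOSD2 cells, and NOC2L fell most in shIDH1 cells and lacks it in this window.
NAT10 (chr11:34105379-34105678, plus strand): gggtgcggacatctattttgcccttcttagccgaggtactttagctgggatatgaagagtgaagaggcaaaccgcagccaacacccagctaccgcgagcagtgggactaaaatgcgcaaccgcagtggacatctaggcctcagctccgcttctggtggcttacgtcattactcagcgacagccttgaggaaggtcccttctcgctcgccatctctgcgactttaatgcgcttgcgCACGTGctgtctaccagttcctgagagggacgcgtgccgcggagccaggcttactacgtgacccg
NOP2 (chr12:6568242-6568541, minus strand): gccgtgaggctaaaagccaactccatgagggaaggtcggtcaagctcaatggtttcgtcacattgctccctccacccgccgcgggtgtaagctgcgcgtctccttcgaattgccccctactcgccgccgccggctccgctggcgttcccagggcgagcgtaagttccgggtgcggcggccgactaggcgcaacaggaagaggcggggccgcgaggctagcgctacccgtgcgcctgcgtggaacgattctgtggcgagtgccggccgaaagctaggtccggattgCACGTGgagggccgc
FBL (chr19:39846330-39846629, minus strand): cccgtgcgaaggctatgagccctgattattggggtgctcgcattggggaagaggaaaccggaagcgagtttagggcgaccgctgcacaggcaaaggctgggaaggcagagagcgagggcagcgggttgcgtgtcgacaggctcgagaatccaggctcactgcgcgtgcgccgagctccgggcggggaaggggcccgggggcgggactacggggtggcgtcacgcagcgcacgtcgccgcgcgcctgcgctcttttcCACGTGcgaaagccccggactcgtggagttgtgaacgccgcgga
WDR43 (chr2:28894417-28894716, plus strand): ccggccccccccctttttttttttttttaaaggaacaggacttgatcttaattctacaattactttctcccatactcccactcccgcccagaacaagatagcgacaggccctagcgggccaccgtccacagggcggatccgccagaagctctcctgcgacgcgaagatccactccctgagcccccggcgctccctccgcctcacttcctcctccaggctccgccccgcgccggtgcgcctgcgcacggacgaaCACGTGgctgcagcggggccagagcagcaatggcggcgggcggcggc
NOC2L (chr1:959207-959506, minus strand): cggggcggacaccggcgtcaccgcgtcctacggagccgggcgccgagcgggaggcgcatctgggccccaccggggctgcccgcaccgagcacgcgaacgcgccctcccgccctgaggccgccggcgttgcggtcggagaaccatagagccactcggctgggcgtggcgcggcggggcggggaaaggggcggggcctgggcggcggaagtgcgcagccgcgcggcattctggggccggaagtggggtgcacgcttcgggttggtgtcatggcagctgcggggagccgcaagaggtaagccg
The letters are shared by members that fell by 1.65 (NAT10) and one at 0.00 (WDR43) on the log2 scale in shIDH1 cells.

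Several members also carry snoRNA genes. In GENCODE v29, 8 of 44 members (18.2%) held at least 1 snoRNA gene within their span on the same strand, against 1.62% of 15307 tested protein-coding genes. They were NCL, NOP56, NOP58, DKC1, WDR43, TSR1, PPAN and GNL3, with 27 snoRNA genes in all. These 8 include WDR43, which rose in shJOSD2 cells, and TSR1, which fell most there, and poly(A) selection does not measure the snoRNAs themselves.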

How the data were processed

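Poly(A) RNA of 9 RBE libraries was sequenced as read pairs after strand-marked library preparation with molecular identifiers, per the labels' protocols. The submitters' processing notes name cutadapt 1.9, HISAT2 2.0.4, UMI-tools, StringTie 1.3.4d and GRCh38; which tool did what, and the annotation, counting step and strand setting, is not given in the sources used here. The deposited counts are whole numbers, not normalized, per the file headers. The values 4, 8, 12 and 16 were each more frequent than their neighbours among low counts, so 1 fragment may carry more than 1 count and counting error may be larger than the counts imply. The deposited FPKM were computed by the authors, scaled to length and library size.

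Counts were fitted with edgeR 4.0.16 (R 4.3.3): filterByExpr, TMM, 1 mean per group over all 9 libraries, quasi-likelihood F-tests and Benjamini-Hochberg adjustment over 21492 tested genes at 0.05. An SE is the log2 change, unsigned, divided by the root of F. FPKM served for levels, ranges and ratios. Alternatives were DESeq2 1.42.0, limma 3.58.1 on log2(FPKM + 1) and log2(FPKM + 0.1), other scalings and filters, counts divided by 4, a replicate block, 6-library fits, control replicate 1 alone and each library left out.

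The members, role groups, lists and the rule for named genes (per role, the highest control level and the largest change in each comparison; every member called higher; up to 3 genes per list) were chosen with earlier results of these data known. Figures used matplotlib 3.10.9.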

Additional observations from a re-analysis of the deposited data

How the results depend on the processing

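In shIDH1 cells 36 to 38 members were called lower and 0 higher under the other scalings, filters, tools, the replicate block and each library left out, and 32 against control replicate 1 alone, a fit in which the other groups supply the spread. Medians there moved beyond the spread between replicates with limma on log2(FPKM + 1) (-0.56) and with control replicate 1 alone (-0.55). In shJOSD2 cells library sizes without factors gave 17 members lower and 3 higher with a median of -0.15, limma on log2(FPKM + 1) 18 lower and 3 higher with -0.15, limma on log2(FPKM + 0.1) 17 lower and 3 higher with -0.16, upper-quartile factors 21 lower and 2 higher, and control replicate 1 alone 10 lower, 11 called in all, with -0.17; NOP56 there turned to 0.0038. Leaving out 1 library gave 22 to 28 lower. Between the hairpins library sizes without factors and both limma fits each gave 35 lower and 1 higher, with medians of -0.61, -0.54 (pseudocount 1) and -0.58 (pseudocount 0.1), and leaving out 1 library gave 1 to 3 higher, with 1 higher without shIDH1 replicate 3 and without shJOSD2 replicate 1. The replicate block gave 38 lower in shIDH1, 26 lower and 1 higher in shJOSD2 cells, and 30 lower and 3 higher between the hairpins; the deviations of same-numbered libraries correlated at -0.02 to 0.04, so the numbers are not taken as pairs. The cause of these changes was not tested. Over all members, comparisons and alternatives, a member passing in neither fit counting as unchanged, 2606 results kept their call, 120 lost it, 45 gained one and 1 turned direction.

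Every member had at least 397 counts per library; for some members the spread between libraries was no larger than counting error, and 3 libraries per group limit the precision. With counts divided by 4, 38 members were lower in shIDH1 and 26 in shJOSD2 cells. Changes are relative to all measured RNA, and a general change of RNA per cell was not measured.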
